A study of Homo sapiens with 12 samples.

Results

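The clustered protocadherin genes were taken as the protein-coding genes of chromosome 5 whose GENCODE symbol begins with PCDHA, PCDHB or PCDHG. There were 53 of them among 20098 protein-coding genes of chromosomes 1 to 22 and X, namely 15 alpha, 16 beta and 22 gamma members. All lie on the plus strand of hg19, the alpha members at chr5:140165721-140391932, the beta members at chr5:140430959-140628933 and the gamma members at chr5:140710081-140892544. The deposited regions were those of chromatin immunoprecipitation sequencing in HCC70, an established cell line of triple-negative breast cancer, kept for 24 h in vehicle or in XY018, a compound that antagonises RORγ, a nuclear receptor. The dose of XY018 is 5 µM in the labels and lower in the study's methods. Antibodies against SREBP2, a transcription factor of sterol metabolism, against RORγ and against H3K27ac, an acetylation mark of active promoters and enhancers, gave 1 library for each treatment, so that no test between treatments was possible and intervals cover counting error only. The 6 input libraries of the 12 samples were not used here.

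Clustered protocadherins are cadherin-like adhesion proteins of the cell surface, known above all from neurons, where each cell uses a few of the genes and recognises like cells by them. An alpha or gamma member has its own promoter and its own large variable exon, which encodes the whole ectodomain and the membrane span and is spliced to constant exons at the end of the cluster, whereas a beta member is encoded by a single large exon. The choice of promoter is known to depend on DNA methylation and on loops held by CTCF and cohesin, and the C-type members PCDHAC1, PCDHAC2, PCDHGC3, PCDHGC4 and PCDHGC5 are known to escape the random choice made among the others.

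In HCC70 the 2 factors had regions over most variable exons, least often in the beta cluster, while H3K27ac had almost none at these genes. With vehicle, SREBP2 regions lay over the coding exon of 46 of 53 members and RORγ regions over that of 48, against 1 for H3K27ac. In the beta cluster SREBP2 lay over 10 of 16. Of all 734 coding exons of at least 2000 bp, 39.5% had an SREBP2, 35.1% a RORγ and 21.9% an H3K27ac region. At the promoters of the same genes regions were scarcer than at promoters at large. There 16 members (30.2%) were called for SREBP2, 13 (24.5%) for RORγ and 0 for H3K27ac, against 70.6%, 62.6% and 66.8% of all genes. The sequences below show the places that these counts set apart.

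The first set is the 250 bases before the annotated start of each C-type member, in the order of the chromosome, with CpG dinucleotides in capitals, and shows promoters with and without factor regions. PCDHAC1 is read at chr5:140305634-140305883, PCDHAC2 at chr5:140345805-140346054, PCDHGC3 at chr5:140855264-140855513, PCDHGC4 at chr5:140864314-140864563 and PCDHGC5 at chr5:140868398-140868647.
PCDHAC1: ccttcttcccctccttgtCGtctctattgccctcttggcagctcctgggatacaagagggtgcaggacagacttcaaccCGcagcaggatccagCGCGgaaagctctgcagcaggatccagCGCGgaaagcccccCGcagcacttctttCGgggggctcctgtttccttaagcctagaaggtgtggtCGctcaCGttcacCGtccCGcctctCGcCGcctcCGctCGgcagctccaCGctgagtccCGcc
PCDHAC2: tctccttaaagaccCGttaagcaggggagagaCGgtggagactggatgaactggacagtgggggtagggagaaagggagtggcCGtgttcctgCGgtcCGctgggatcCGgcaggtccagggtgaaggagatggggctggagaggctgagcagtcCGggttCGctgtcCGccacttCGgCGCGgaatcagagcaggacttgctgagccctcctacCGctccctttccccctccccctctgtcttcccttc
PCDHGC3: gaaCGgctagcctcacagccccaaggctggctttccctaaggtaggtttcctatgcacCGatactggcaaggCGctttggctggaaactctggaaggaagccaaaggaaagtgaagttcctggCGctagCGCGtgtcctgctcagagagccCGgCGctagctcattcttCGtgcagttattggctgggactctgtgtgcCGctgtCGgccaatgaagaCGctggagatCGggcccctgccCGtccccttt
PCDHGC4: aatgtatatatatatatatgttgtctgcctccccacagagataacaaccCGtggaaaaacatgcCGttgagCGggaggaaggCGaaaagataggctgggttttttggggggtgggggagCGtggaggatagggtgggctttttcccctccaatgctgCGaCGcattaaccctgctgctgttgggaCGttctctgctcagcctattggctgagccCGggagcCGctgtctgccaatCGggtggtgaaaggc
PCDHGC5: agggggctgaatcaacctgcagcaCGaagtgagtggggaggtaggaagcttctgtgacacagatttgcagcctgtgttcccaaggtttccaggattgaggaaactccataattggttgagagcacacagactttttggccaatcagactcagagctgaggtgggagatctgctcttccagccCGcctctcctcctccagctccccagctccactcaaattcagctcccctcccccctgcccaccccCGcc

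These stretches hold 18, 13, 14, 11 and 3 CpG in that order. The second set gives the 120 bases before the start of the members that come first in each cluster among those with no promoter region in any list, PCDHA1 at chr5:140165601-140165720, PCDHB1 at chr5:140430839-140430958 and PCDHGA1 at chr5:140709961-140710080, again with CpG in capitals. PCDHA10 at chr5:140235348-140235467 and PCDHGA8 at chr5:140769604-140769723, the members whose promoter call rested on the most fragments for SREBP2 and for RORγ, are given beside them. The region of PCDHA10 lay at a later start and not over the stretch shown, and that of PCDHGA8 had its summit upstream of the stretch in each of the 4 factor lists.
PCDHA1: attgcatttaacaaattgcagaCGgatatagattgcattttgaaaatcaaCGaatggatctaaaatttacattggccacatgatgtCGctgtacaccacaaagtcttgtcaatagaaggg
PCDHB1: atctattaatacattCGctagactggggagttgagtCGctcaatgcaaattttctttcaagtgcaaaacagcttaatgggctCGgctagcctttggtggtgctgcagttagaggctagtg
PCDHGA1: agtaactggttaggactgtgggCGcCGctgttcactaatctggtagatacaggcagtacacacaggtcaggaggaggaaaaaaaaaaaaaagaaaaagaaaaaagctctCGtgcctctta
PCDHA10: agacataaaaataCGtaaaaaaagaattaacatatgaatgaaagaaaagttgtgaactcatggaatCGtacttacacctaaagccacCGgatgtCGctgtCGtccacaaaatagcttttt
PCDHGA8: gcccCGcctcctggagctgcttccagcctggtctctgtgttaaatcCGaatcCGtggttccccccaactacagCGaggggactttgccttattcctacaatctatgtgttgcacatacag

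These hold 3, 3, 3, 5 and 4 CpG. The third set is the 100 bases around the summit of the region with the most fragments in each cluster with vehicle, and shows the kind of sequence that carried the factor signal. For SREBP2 these lie in PCDHA13 at chr5:140263994-140264093 and in PCDHGC5 at chr5:140871245-140871344, and for RORγ in PCDHA13 at chr5:140263663-140263762 and in PCDHGB6 at chr5:140789310-140789409, each inside a variable coding exon. In the beta cluster both factors had most fragments in the pseudogene PCDHB19P, here around the SREBP2 summit at chr5:140621165-140621264. PCDHA13 is given first for SREBP2 and then for RORγ.
PCDHA13: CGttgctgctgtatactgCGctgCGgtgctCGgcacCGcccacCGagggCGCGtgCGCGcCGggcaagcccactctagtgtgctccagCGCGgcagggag
PCDHGC5: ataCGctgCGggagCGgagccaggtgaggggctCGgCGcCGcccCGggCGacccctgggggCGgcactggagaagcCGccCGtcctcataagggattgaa
PCDHA13: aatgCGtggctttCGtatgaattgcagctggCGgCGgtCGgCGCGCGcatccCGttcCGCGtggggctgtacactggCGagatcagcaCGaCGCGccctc
PCDHGB6: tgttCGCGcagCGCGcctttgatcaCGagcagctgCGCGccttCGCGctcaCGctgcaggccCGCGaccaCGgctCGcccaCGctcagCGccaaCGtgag
PCDHB19P: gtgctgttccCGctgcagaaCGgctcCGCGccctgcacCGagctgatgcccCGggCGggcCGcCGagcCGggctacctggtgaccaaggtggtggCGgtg

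The summit stretches hold 13, 11, 15, 17 and 11 CpG in the order printed. Per base they are denser in CpG than any of the promoter stretches above.

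Regions were dense in the clusters for both factors. The 3 clusters, 606651 bp in all, held 88 and 66 SREBP2 regions, vehicle first, and 119 and 88 RORγ regions. For SREBP2 with vehicle this was 145 regions per Mb against 38.7 per Mb over chromosomes 1 to 22 and X, and for RORγ with vehicle 196 against 55.1 per Mb. The share of bases covered was 7.10% against 1.62% for SREBP2 and 9.71% against 2.02% for RORγ. H3K27ac went the other way, with 4 regions with vehicle and 5 with XY018, which is 6.59 and 8.24 per Mb against 31.3 and 34.7 per Mb over the same chromosomes. The alpha cluster and the gap of 39026 bp that follows it held no H3K27ac region in either list, while the 100 kb after the gamma cluster held 19 in each.

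**Figure D1:**
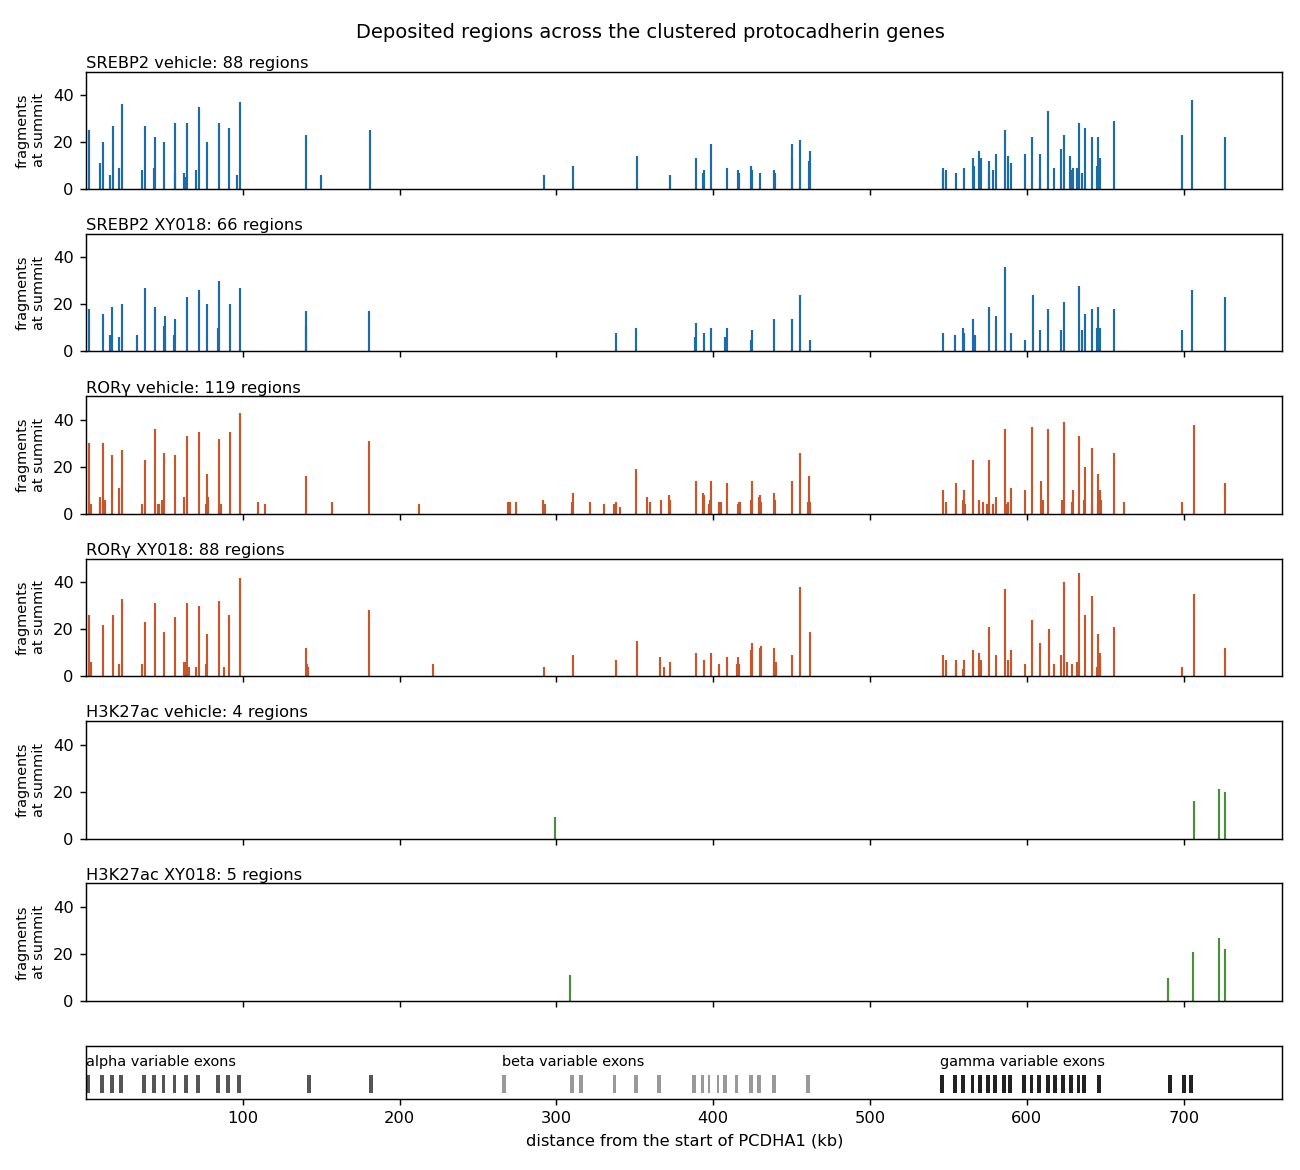
Regions of the 6 lists across the locus, with the distance from the start of PCDHA1 in kb on the horizontal axis, the number of fragments at the summit on the vertical axis, 1 line per region, and the variable coding exons of the members as boxes at the bottom. The SREBP2 and RORγ lines stand over the exons of all 3 clusters and reach 44 fragments, whereas the 4 and 5 H3K27ac lines stand mainly at the far end of the gamma cluster.

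Promoters were taken as 1000 bp before to 100 bp after any annotated transcript start, and a member was called where a deposited region overlapped this window. SREBP2 with vehicle called 16 of 53 members, or 30.2% (exact 95% interval 18.3 to 44.3), against 70.6% of all protein-coding genes. With XY018 it called 9, or 17.0%, against 62.7%. RORγ called 13 members with vehicle, or 24.5%, against 62.6%, and 11 with XY018, or 20.8%, against 61.5%. H3K27ac called 0 members with vehicle, where counting error allows up to 6.72%, against 66.8% of all genes, and 1 with XY018 against 68.0%. In each of the 6 lists the share of members called was below that of all genes. The H3K27ac lists hold part of longer numbered call sets, so that a region missing there is missing from the deposited list only.

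Both factors were present with vehicle at 11 member promoters, or 20.8%, against 60.2% of all genes. A factor without H3K27ac was found at 18 member promoters, or 34.0%, against 13.7% of all genes. No region in any of the 6 lists was found at 34 member promoters, or 64.2%, against 17.5% of all genes. These members were PCDHA1, PCDHA3, PCDHA5, PCDHA6, PCDHA8 and PCDHA12 in the alpha cluster, 15 of the 16 beta members, all but PCDHB2, and 13 gamma members, PCDHGA1, PCDHGA2, PCDHGA3, PCDHGA7, PCDHGA9, PCDHGA10, PCDHGA12, PCDHGB1, PCDHGB2, PCDHGB3, PCDHGB4, PCDHGB5 and PCDHGC5. Each of them except PCDHB1 and PCDHB3 had a factor region over its coding exon.

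Part of the promoter calls came through secondary starts. For SREBP2 with vehicle, 7 of the 16 called members had a region at the first annotated start, and the other 9 were called through a later start only. With XY018 it was 5 and 4, for RORγ with vehicle 8 and 5, and for RORγ with XY018 7 and 4, so that later starts made up the larger part for SREBP2 with vehicle only. In PCDHA2, PCDHA13, PCDHGA4, PCDHGA5, PCDHGA6 and PCDHGA11, among those 9, the last start lay only 7 to 181 bp after the first. In PCDHA10, PCDHA11 and PCDHB2 it lay 2227 to 3035 bp after the first. PCDHA10 is an example of these, since its SREBP2 region of 35 fragments (exact Poisson interval 24.4 to 48.7) had its summit 2244 bp after the gene start, inside the variable exon. The same region held 26 fragments with XY018, and for RORγ 35 and 30. PCDHA11 had 28 and 30 SREBP2 fragments and 32 and 32 RORγ fragments, with summits 2780 to 3046 bp after its start. PCDHGA8 owed its call to its first annotated start, that of a long transcript which begins inside the coding exon of its neighbour PCDHGB4, where SREBP2 had 22 and 24 fragments and RORγ 37 and 24. In all 3 genes the promoter call and a coding-exon region were the same signal.

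Of the 7 SREBP2 calls at the first start, 3 were C-type members. PCDHAC1 carried 23 SREBP2 fragments in the vehicle list and 17 in the XY018 list, the summits lying 1 and 48 bp before the start, and RORγ with 16 and 12 fragments. PCDHAC2 carried 25 and 17 SREBP2 fragments and 31 and 28 RORγ fragments, with summits between 277 and 438 bp after the start. PCDHGC4 carried 23 and 9 SREBP2 fragments, and only 5 and 4 for RORγ. PCDHGC3 and PCDHGC5 had no factor region at the promoter in any list. Among the other members PCDHGB6 had its SREBP2 summits at the start, 52 bp before it with vehicle (17 fragments) and 45 bp before it with XY018 (9 fragments), and RORγ had 6 and 9 fragments there.

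Over all called members, the median number of promoter fragments was 15 for SREBP2 with vehicle and 7 for RORγ, against 29 and 24 over all genes called. In the beta cluster the only promoter call was PCDHB2, again through an internal start, with 10 SREBP2 fragments with vehicle and 9 and 9 RORγ fragments. The promoters of the members were poor in GC and CpG. Their median GC content was 36.1%, from 28.2% in PCDHA11 to 60.4% in PCDHGA8, against 52.5% over all genes, and the median ratio of observed to expected CpG was 0.407 against 0.560.

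The coding exons gave the opposite picture. For this comparison the longest coding exon of a gene was used where it had at least 2000 bp, as it did in 51 of the 53 members and in 683 other genes, or 734 in all. SREBP2 with vehicle had a region over 46 of the 51 member exons, or 90.2% (exact interval 78.6 to 96.7), against 39.5% of the 734 exons and 35.7% of the other 683. With XY018 it was 41, or 80.4%, against 33.7%. RORγ was found over 46 exons with vehicle, or 90.2%, against 35.1%, and over 47 with XY018, or 92.2%, against 35.3%. H3K27ac was found over 1 exon with vehicle, or 1.96%, against 21.9%, and over 3 with XY018, or 5.88%, against 22.3%. The factors were thus above and H3K27ac below the share of long coding exons at large. The member exons were also richer in CpG, with a median observed to expected ratio of 0.721 against 0.293 in the other 683 and a GC content of 55.3% against 50.5%. The part of this composition in the calls was not tested. The 2 members left out, PCDHB9 and PCDHB16, have a coding exon that the annotation lifted to hg19 splits in 2 pieces at most 1 base apart. With such pieces joined, a choice made after the values were seen, SREBP2 was found over 47 of 53 member exons with vehicle, or 88.7%, and over 42 with XY018, and RORγ over 48 and 49.

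**Figure D2:**
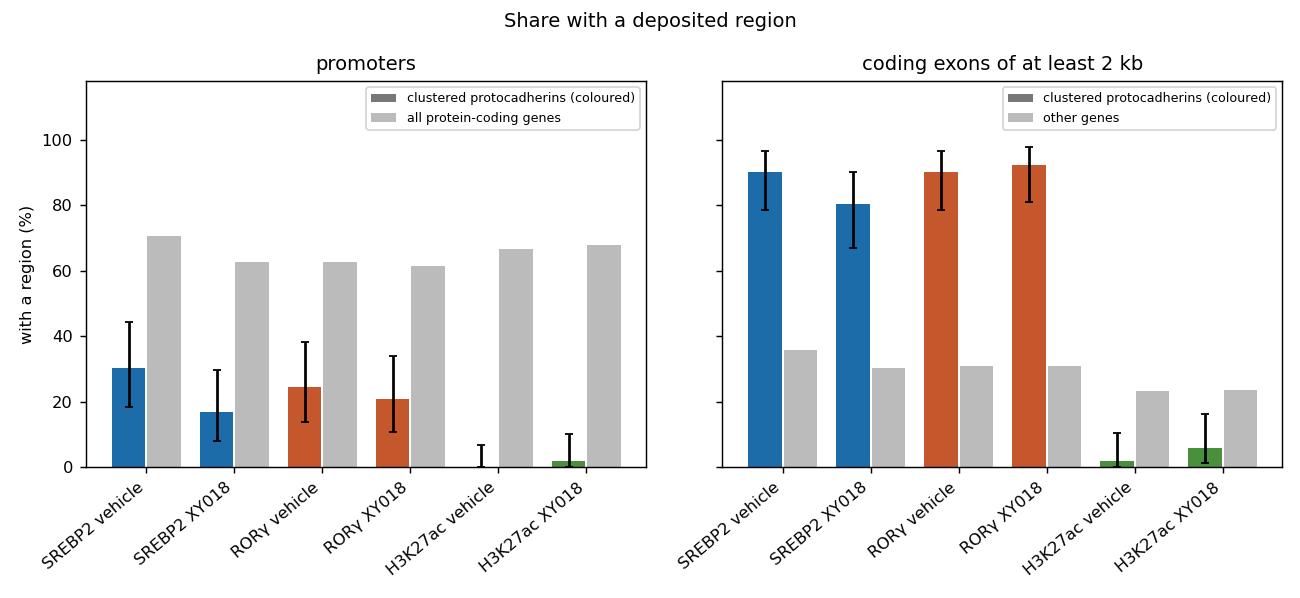
Share of genes with a deposited region, in percent on the vertical axis, at promoters (left) and over coding exons of at least 2000 bp (right) in each of the 6 libraries. Coloured bars are the clustered protocadherins with exact 95% binomial intervals and grey bars all protein-coding genes (left) or the other 683 genes (right), and the SREBP2 and RORγ bars of the members are below the grey bars on the left (30.2% against 70.6% for SREBP2 with vehicle) and above them on the right (90.2% against 35.7%).

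Of the 53 members, 38 had a region over the coding exon in all 4 factor lists, 14 of 15 in the alpha, 7 of 16 in the beta and 17 of 22 in the gamma cluster. With the split exons joined PCDHB16 was added, for 39 members and 8 of 16 in the beta cluster. Only PCDHB1, PCDHB3 and PCDHGC3 had none in any factor list, joined or not. The share of the other 683 exons called in all 4 factor lists was not counted. It cannot exceed the 30.2% of them called for SREBP2 with XY018. In PCDHA1 to PCDHA13 the strongest exon region had a median of 27 SREBP2 fragments with vehicle (range 20 to 37) and of 30 RORγ fragments (23 to 43), and every one of these 13 members was called in each of the 4 factor lists. PCDHA13 had 37 and 27 SREBP2 fragments and 43 and 42 RORγ fragments, vehicle first, the most of the alpha cluster in each list except SREBP2 with XY018, where PCDHA11 had 30. PCDHA4 followed for SREBP2 with 36 and 20 fragments, against 27 and 33 for RORγ. PCDHA6 followed for RORγ with 36 and 31 fragments, against 22 and 19 for SREBP2.

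Beta members had weaker regions over their coding exon, with a median of 9.5 SREBP2 fragments with vehicle (7 to 16, 10 members called) and 9 RORγ fragments (4 to 19, 14 members called). PCDHB15 and PCDHB5 had the most, with 16 and 14 SREBP2 fragments and 16 and 19 RORγ fragments with vehicle. These values use the longest coding piece, and in the shorter piece of PCDHB16, 2194 to 2204 bp after its start, SREBP2 had 19 and 10 fragments and RORγ 14 and 10. With the pieces joined the SREBP2 median with vehicle was 10 fragments (7 to 19, 11 members called). The beta exons also repeat one another more, and a median of 76.5% of the 50-base words in them occurred once in the reference, against 90.1% in the alpha and 93.7% in the gamma cluster. Since tags placed at several sites had been removed according to the methods of the study, the lower beta values were read from less sequence, and the part of this was not tested. PCDHB8 had the lowest share of such words, 52.3%, and still had a region in each of the 4 factor lists, with 7 to 9 fragments.

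The gamma members fell into subfamilies that alternate along the chromosome. The 12 members of the A type had a median of 14.5 SREBP2 fragments with vehicle (7 to 26) and 10 RORγ fragments (6 to 20, 11 called). The 7 members of the B type, interspersed among them, had 23 SREBP2 fragments (12 to 33) and 36 RORγ fragments (23 to 39). For RORγ with vehicle the ranges of the A and B types did not overlap, while for RORγ with XY018 (5 to 26 and 11 to 44) and for SREBP2 they did. PCDHGB6 had 39 and 40 RORγ fragments and 23 and 21 SREBP2 fragments, PCDHGB7 33 and 44 RORγ fragments and 28 in each SREBP2 list, and PCDHGB5 36 and 20 RORγ fragments and 33 and 18 SREBP2 fragments. PCDHGA12 had its strongest summits 901 to 984 bp after the start in all 4 lists, with 17 to 22 fragments. The summits of PCDHGA4 lay nearer the start, at 338 to 391 bp in the 3 lists in which it was called, and so did those of PCDHGC4, at 41 to 79 bp in 3 lists.

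**Figure D3:**
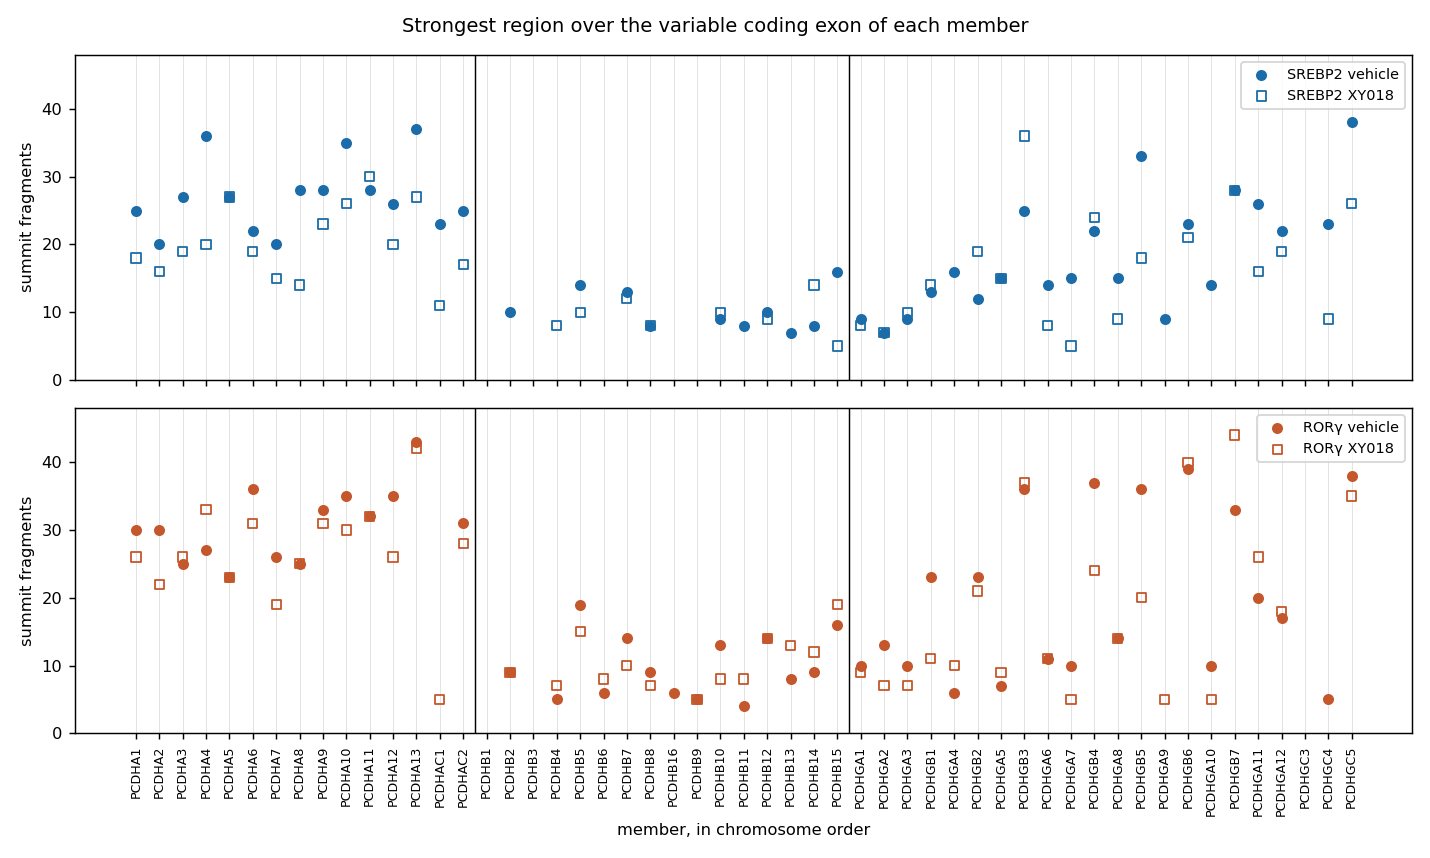
Number of fragments at the summit of the strongest region over the coding exon of each of the 53 members, in chromosome order, for SREBP2 (top) and RORγ (bottom), with filled circles for vehicle and open squares for XY018, a member without a region having no symbol. Alpha members lie mostly above 15 fragments, beta members at 19 or fewer in every list, and for RORγ with vehicle the A-type gamma members lie at 6 to 20 and the B-type at 23 to 39, while PCDHB9 and PCDHB16 are plotted for their longest coding piece.

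Pseudogenes of the locus held regions as well. With vehicle, 7 SREBP2 and 9 RORγ regions had their summit in a protocadherin pseudogene, the strongest being PCDHGB9P with 29 SREBP2 fragments, PCDHGB8P with 28 RORγ fragments and PCDHB19P with 21 SREBP2 and 26 RORγ fragments, the highest counts of the beta cluster. SLC25A2, a mitochondrial carrier gene between the beta and gamma clusters, had a promoter region of 35 and 40 SREBP2 and 53 and 58 RORγ fragments and no H3K27ac region. TAF7, its neighbour and a subunit of the general transcription factor TFIID, had no factor region and 15 H3K27ac fragments with vehicle. DIAPH1, the formin gene that follows the gamma cluster, had 121 and 135 H3K27ac fragments at its promoter beside 21 and 15 SREBP2 fragments.

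Most summits in the clusters lay inside a variable coding exon. These exons make up 21.1% of the length of the 3 clusters, and held 71 of the 88 SREBP2 summits with vehicle, or 80.7% (70.9 to 88.3), and 72 of the 119 RORγ summits, or 60.5% (51.1 to 69.3). A promoter window outside the exon held 3 and 4. Within the exon the summits gathered toward the 3′ end, with 42 of 71 SREBP2 and 46 of 72 RORγ summits in the last of 3 equal parts of its length. In the beta cluster 0 of 14 SREBP2 summits and 0 of 24 RORγ summits lay in the first part. The last part is also the richest in GC, with a median of 61.9% in the alpha, 65.6% in the beta and 59.5% in the gamma cluster, against 52.4%, 49.2% and 55.2% in the first part. The median GC content of the 300 bases around the summits was 65.0% for SREBP2 and 62.3% for RORγ with vehicle.

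**Figure D4:**
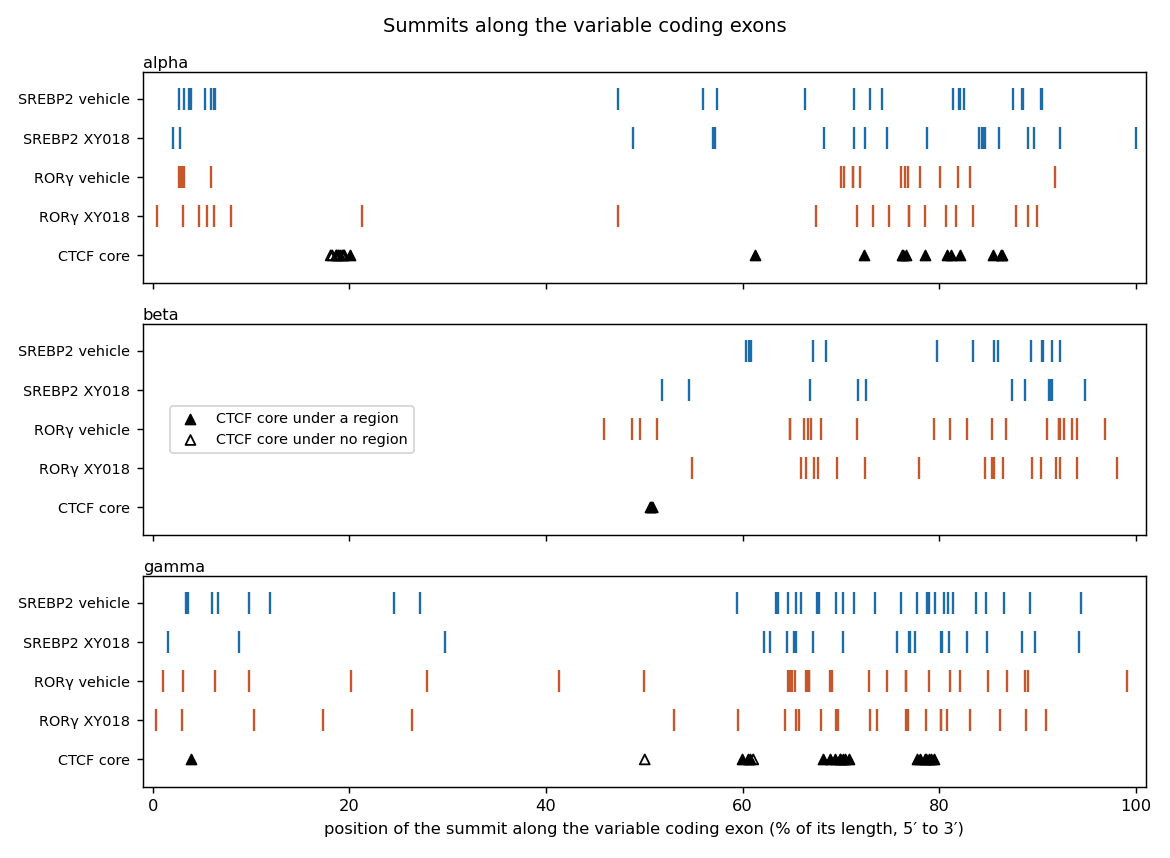
Position of each factor summit along its variable coding exon, as percent of the exon's length from 5′ to 3′, by cluster and library, with triangles for matches to the CTCF core letters, filled under a deposited region and open under none. With vehicle, 42 of 71 SREBP2 and 46 of 72 RORγ summits lie in the last of 3 equal parts of the exon, and the 9 alpha CTCF matches at 18.1% to 19.5% of the exon are open.

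Short motifs were looked up on both strands. In the 300 bases from 250 before to 50 after the gene start, the letters AGNNGGCGC were used as a CTCF core. They were found in 2 members, PCDHB7 and PCDHB9, or 3.77%, against 11.8% of all promoters. CTCF sites with other letters were not searched, so this count does not show how many of these promoters hold one. The sterol regulatory element TCACNCCAC was found in PCDHGA10 alone, or 1.89%, against 1.27%. Of the ROR core sites, TAGGTCA was found in 0 members against 1.64% of all promoters, and TGGGTCA in PCDHA12 alone against 3.54%. None of these 4 members had a promoter region in any list.

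In the coding exons the sterol regulatory element was absent from all 51 members with a long exon and present in 9.81% of the 683 others, and around the SREBP2 summits of the clusters with vehicle it was found in 0 of 88 against 3.80% of all 117441 SREBP2 regions. The ROR core TAGGTCA was found in 15.7% of member exons against 18.7% of the others, and TGGGTCA in 13.7% against 29.9%. The CTCF core was the exception, in 32 of 51 member exons, or 62.7%, against 22.7% of the others. Its letters always hold a CpG, unlike those of the other motifs, and the CpG ratio was 0.721 in member exons against 0.293 in the others. The part of this was not tested, and matches in exons that resemble one another are not independent. Within 150 bp of the summits it was found at 18.2% of SREBP2 regions with vehicle against 7.54% of all SREBP2 regions, and at 15.1% of RORγ regions with vehicle against 4.95%. A match is a string of letters and not a bound site, and the lists hold no CTCF library.

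The CTCF core matches of the alpha exons lay mostly in 2 places. In 9 alpha members a match on the plus strand lay at 18.1% to 19.5% of the exon, and 0 of the 9 was under a region in any of the 6 lists. The matches in the last of the 3 parts lay under regions in 4 lists, and in PCDHA6, PCDHA9, PCDHA10 and PCDHA12 such a match was within 150 bp of the summit in all 4 factor lists. Of the other 2 matches, that of PCDHA5 at 61.3% of the exon lay under a region in 4 lists and that of PCDHAC2, at 20.1% and on the minus strand, in 1. The 29 bases around these 4 matches follow, with the core in capitals, PCDHA6 at chr5:140209735-140209763, PCDHA9 at chr5:140230005-140230033 (minus strand), PCDHA10 at chr5:140237555-140237583 (minus strand) and PCDHA12 at chr5:140257096-140257124.
PCDHA6: gcgggcccagAGGCGGCGCtggtggatgt
PCDHA9: caccagcaccAGTAGGCGCtggcgcggtg
PCDHA10: caccagcaccAGTAGGCGCtggcgtggcg
PCDHA12: cgcgggcctcAGTGGGCGCtgtggatccc

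Of the same genes, PCDHA9, PCDHA10 and PCDHA12 also had the earlier match, here from chr5:140228532-140228560, chr5:140236082-140236110 and chr5:140255509-140255537 on the plus strand, under no region.
PCDHA9: ggtttccactAGAGGGCGCgtccgatgca
PCDHA10: gatttccactAGAAGGCGCatctgatgcg
PCDHA12: attttcctctAGAGGGCGCttctgatgcg

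The 2 factors shared their places in the clusters. With vehicle, 77 of 88 SREBP2 regions, or 87.5% (78.7 to 93.6), overlapped a RORγ region by at least 1 bp, against 49.0% of all SREBP2 regions. In the other direction 70 of 119 RORγ regions, or 58.8%, overlapped an SREBP2 region, against 34.6%. H3K27ac overlapped 2 of the 88 SREBP2 regions, or 2.27% (0.276 to 7.97), against 27.3% of all SREBP2 regions, and 2 of the 119 RORγ regions, or 1.68%, against 16.7%. With XY018 the shares were 89.4%, 63.6%, 3.03% and 2.27% in the same order.

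Most of the few H3K27ac regions stood at the end of the gamma cluster. With vehicle 1 region of 9 fragments lay between genes in the beta cluster, and it overlapped no H3K27ac region with XY018. PCDHGC5, the last variable exon, was the only member with a region over its coding exon in all 6 lists, with 38 and 26 SREBP2 fragments, 38 and 35 RORγ fragments and 16 and 21 H3K27ac fragments. Only the SREBP2 summits, 2647 and 2640 bp after the start, lay inside the exon. The RORγ summits, 3488 and 3516 bp after the start, lay in the intron that follows. The H3K27ac region there, at chr5:140871186-140872505 with vehicle, also had its summit in the intron after the exon. A second region, at chr5:140887955-140888645 between the constant exons, had 21 and 27 H3K27ac fragments and no factor region. The last, at chr5:140891931-140892471 in the last constant exon, had 20 and 22 fragments and overlapped both factors. The single promoter call for H3K27ac, PCDHGC3 with XY018, rested on 2 regions. The stronger was the second of the regions above, which reached further toward a secondary start of PCDHGC3 in the XY018 list. With XY018 PCDHGC3 had 10 H3K27ac fragments 210 bp after its first start, and none was listed with vehicle. PCDHB2 had 11 fragments 272 bp after its start with XY018 only. H3K27ac regions were thus too few for a comparison between treatments.

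In the clusters fewer regions were called with XY018 for both factors, while H3K27ac had 4 with vehicle and 5 with XY018. The lists as a whole moved in the same directions but not by the same shares, and that of H3K27ac rose from 95099 to 105371. SREBP2 fell from 88 to 66 regions in the clusters and from 117441 to 69700 on chromosomes 1 to 22 and X, and RORγ from 119 to 88 and from 167264 to 129954. Of the 88 SREBP2 regions with vehicle, 59 or 67.0% (56.2 to 76.7) overlapped an XY018 region, against 39.8% genome-wide. For RORγ, 75 of 119 or 63.0% (53.7 to 71.7) did, against 36.4%. Among regions with q of at most 1e-05 the gap closed, at 64.2% against 60.3% for SREBP2 and 83.7% against 80.6% for RORγ. Depth, as tags per kb implied by the deposited values, was 5.56 and 5.92 for SREBP2 and 4.04 and 3.65 for RORγ, vehicle first, so that the fall in SREBP2 regions was not accompanied by fewer tags.

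Member promoters lost their call with XY018 more often than promoters at large. SREBP2 was called with both treatments at 9 members, with vehicle alone at 7 and with XY018 alone at 0. The 7 are 43.8% (exact interval 19.8 to 70.1) of the 16 called with vehicle, against 12.5% of 14188 over all genes. For RORγ 4 of 13 were lost, or 30.8% (9.09 to 61.4), against 8.26% of 12591. The called members also had fewer fragments than called genes at large, as given above, and the part of this was not tested. The 5 strongest of the 7 were PCDHGA4 with 16 fragments, PCDHGA6 with 14, PCDHA2 with 11, PCDHB2 with 10 and PCDHGB7 with 9, and the others PCDHGA5 and PCDHA13. RORγ was called with vehicle alone at PCDHA2, PCDHA7, PCDHA9 and PCDHGA5, with 4 to 7 fragments, and with XY018 alone at PCDHGA4 and PCDHGB7, with 10 and 6. At PCDHGA4 the RORγ call turned on the edge of the window, since a vehicle region of 6 fragments, with its summit 338 bp after the start, overlapped the XY018 region and missed the promoter window. In the same way the RORγ region of PCDHA9 called with vehicle overlapped an XY018 region outside the window. None of the 7 SREBP2 regions called with vehicle alone overlapped an SREBP2 region with XY018. These counts are small, and a promoter just under the calling threshold in 1 library looks the same as an empty one.

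At promoters with overlapping regions in both treatments the fragments were compared after scaling to the genome-wide background of each library. The median ratio of XY018 to vehicle was 0.626 for SREBP2 over 9 members, lower with XY018 in 8, against 0.621 over 12337 genes. For RORγ it was 0.999 over 9 members, lower in 5, against 0.968 over 11311 genes. PCDHGC4 had the lowest SREBP2 ratio of the 9, 0.331 (exact interval 0.135 to 0.743), and PCDHGA11 the highest, 1.09 (0.361 to 3.44). The other 7 lay between 0.448 for PCDHGB6 and 0.923 for PCDHGA8, each with an interval that holds 1. Lower binding in every cell and binding in fewer cells cannot be told apart in such libraries.

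Over all regions of the clusters with a partner the same held. Of 59 SREBP2 pairs, 52 had fewer scaled fragments with XY018 and the median ratio was 0.695, against 0.616 over 46730 pairs genome-wide, of which 94.2% were lower. Of 75 RORγ pairs, 26 were lower and the median ratio was 1.11, against 1.11 over 60885 pairs, of which 43.8% were lower. This median is the scaling factor itself, so that the median pair had equal fragments before scaling. In pairs with at least 40 fragments together, the RORγ median was 1.04 over 25 pairs, 10 of them lower. Genome-wide it was 1.02 over 18335 such pairs. The counting interval of the ratio lay below 1 for 8 SREBP2 pairs, those over the exons of PCDHGC5, PCDHA4, PCDHGB5, PCDHA8, PCDHGA7 and PCDHB15, the pseudogene PCDHGB9P and the promoter of PCDHGC4. PCDHA4 went from 36 to 20 fragments (ratio 0.470, interval 0.258 to 0.834) and PCDHA8 from 28 to 14 (0.423, 0.206 to 0.831). It lay above 1 for 1 SREBP2 and 1 RORγ pair, in PCDHA9 and PCDHGA12, with vehicle regions of 5 and 4 fragments. The paired summits there lay apart, at 1920 and 2552 bp after the start in PCDHA9 and at 1270 and 901 bp in PCDHGA12, so that these 2 pairs compare different places. The XY018 region of each was also paired with another vehicle region. The same held in PCDHA8, where 1 XY018 region gave SREBP2 pairs of 28 to 14 and 7 to 14 fragments. Some XY018 regions thus entered more than 1 pair, and summits may lie apart in other pairs too. These intervals are not adjusted for the number of pairs.

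**Figure D5:**
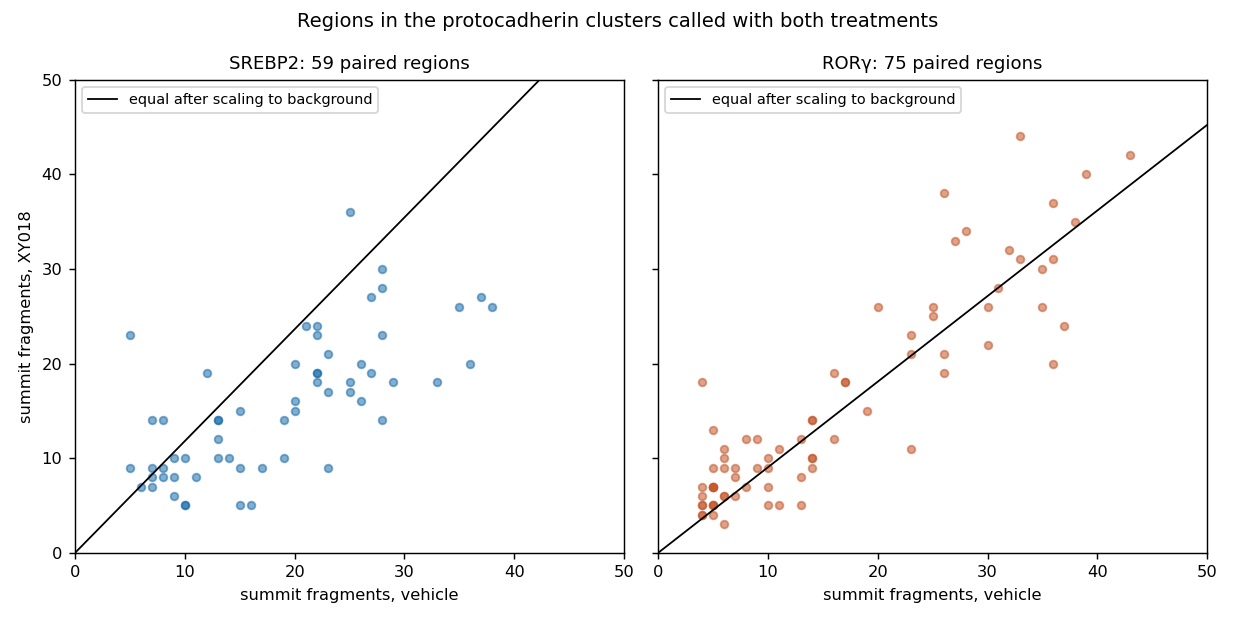
Fragments at the summit with vehicle (horizontal axis) and with XY018 (vertical axis) for the regions of the protocadherin clusters called with both treatments, 59 for SREBP2 (left) and 75 for RORγ (right), with a line where both would be equal after scaling to the genome-wide background. For SREBP2, 52 of the 59 points lie below the line, and for RORγ 26 of 75. An XY018 region that overlaps several vehicle regions gives a point for each.

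Other genes put these values in proportion. Of 12 non-clustered protocadherins, which have their own scattered promoters, 7 had a SREBP2, 7 a RORγ and 6 an H3K27ac promoter region with vehicle, PCDH1, PCDH7, PCDH8 and PCDH9 having all 3. Of 11 genes for CTCF, cohesin and other known regulators of the clusters, 10, 11 and 11 were called. Of 39 HOX genes, another set of clustered developmental genes, 34, 34 and 25 were called. Of 177 olfactory receptors of chromosome 11, a clustered family with small promoters known above all from the nose, 1, 5 and 0 were called. H3K27ac with vehicle marked 6 of 8 basal and 5 of 7 luminal breast markers, KRT5 and ESR1 among them. These shares are near the 66.8% of all genes. It marked 1 of 5 neuronal markers, TUBB3. All 5 neuronal promoters had regions of both factors with vehicle, against 60.2% of all genes.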

How the data were processed

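Chromatin immunoprecipitation was sequenced in HCC70 cells with 3 antibodies and 2 treatments, 1 library each. The study's methods name BWA for alignment to hg19, removal of tags placed at several sites and MACS for calling regions. The submitters' processing notes name Bowtie2, MACS2 2.1.0 and bedtools. Each of the 6 lists the authors deposited holds the regions of 1 library, with a fold enrichment (ratio), −log10 p and −log10 q values and a summit offset. The deposited display score is a capped copy of the −log10 p and was left out. The H3K27ac lists hold part of longer numbered call sets, by a rule not given in the sources used here.

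The deposited fold and −log10 p were inverted under the Poisson model of the caller to whole fragments at the summit and a local background, which succeeded for 99.9991% or more of the regions of every list within 5% of 1 fragment. The genome-wide background per fragment length gave 3.65 to 6.16 tags per kb. Promoters (1000 bp before to 100 bp after any start in GENCODE release 44 on GRCh37, which is hg19) and coding exons were overlapped with regions by at least 1 bp. Intervals are exact (Clopper-Pearson, Poisson, or conditional for ratios of counts) at 95% and cover counting error only. Base composition, words of 50 bases and printed sequences come from the GRCh37 reference. Python 3.11.15, numpy 2.4.6, scipy 1.17.1 and pysam 0.24.0 were used, and the inversion and the overlaps were tested on simulated data.

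Groups came from the labels of antibody and treatment. With 1 library in each group no test was made. The members, the gene lists (non-clustered protocadherins, cluster regulators, HOX genes, olfactory receptors, and basal, luminal and neuronal markers) and the comparisons were chosen with earlier results of these data known, and the comparison of coding exons, also with exon pieces at most 1 base apart joined, was added after these values were seen. Members named with values were the 2 with the most fragments in each cluster and antibody with vehicle, the C-type members, those whose promoter call differed between treatments and those without a region. Of the regions outside promoters, the 2 with the highest fold in each cluster were named. Alternatives were stricter q values, the first start only, summits inside the window, lists of equal length, larger overlaps and another scaling.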

Additional observations from a re-analysis of the deposited data

Results flagged for a closer look

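The number of regions in the 3 protocadherin clusters moved in different directions between vehicle and XY018. The change, XY018 minus vehicle, was -22 for SREBP2 and -31 for RORγ, and 1 for H3K27ac. With 1 library in each group the difference between the antibodies was not tested. The whole lists moved in the same directions, from 117441 to 69700 regions for SREBP2, from 167264 to 129954 for RORγ and from 95099 to 105371 for H3K27ac, and the change for H3K27ac in the clusters rests on a single region.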

How the results depend on the processing

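Of 87 values under alternative settings, 64 stayed within 1.5 times the count or within the counting interval of the reported value and 23 moved. No median ratio changed direction, but single ratios did. Scaled by tags per kb, the SREBP2 promoter ratio went from 0.907 to 1.005 in PCDHA11 and from 0.923 to 1.023 in PCDHGA8. That scaling left 6 members with a ratio below 1, where the background scaling gave 8, out of 9 compared. With the first annotated start only, member promoters called numbered 7 and 5 for SREBP2 (vehicle first), 8 and 7 for RORγ and 0 for H3K27ac with XY018, against 55.2%, 46.9%, 45.7%, 44.2% and 58.0% of all genes, so the members stayed below all genes. With the summit required inside the promoter window, SREBP2 with vehicle called 9, RORγ with XY018 called 5 and H3K27ac with XY018 called 0. The shares of all genes were 56.0%, 47.5% and 52.6%. At q of at most 0.01, RORγ with vehicle called 8 member promoters and 69 regions in the clusters, of which 75.4% were kept with XY018 and 84.1% overlapped an SREBP2 region. At q of at most 1e-05, promoters numbered 5 for SREBP2 with XY018 and 6 for RORγ with vehicle. Of all genes, 54.2% and 51.9% were called there. Regions in the clusters numbered 53 and 36 for SREBP2 and 49 and 46 for RORγ. The shares kept were 83.7% for RORγ and 100% of 3 regions for H3K27ac, while 81.6% of RORγ regions overlapped an SREBP2 region. At neither q value was this overlap set against that of all regions. In lists of equal length 77.6% of SREBP2 regions were kept. With the summit required inside the coding exon, an alternative added after the data were seen, H3K27ac with vehicle had 0 exons and SREBP2 and RORγ with vehicle had 44 and 43, and at q of at most 1e-05 the factors had 37 and 39 exons of 51 against 30.7% and 25.3% of the other 683 exons. No paired analysis was possible because each group had 1 library. Regions of 4 to 10 fragments, common in the beta cluster, have wide counting intervals, and a member without a region may lie just under the threshold at this depth.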
